A study of Mus musculus with 16 samples.

Results

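Proteasome and immunoproteasome genes were followed in MPI-2 cells, with and without exposure to Mycobacterium abscessus. MPI-2 is a self-renewing mouse macrophage line that resembles alveolar macrophages and depends on GM-CSF. Mycobacterium abscessus belongs to the nontuberculous mycobacteria and can survive within such cells. The genes were taken by symbol, as Psma, Psmb, Psmc, Psmd, Psme, Psmf or Psmg followed by a digit, with at least 1 CPM (count scaled by the total of its library) in 4 or more of the 16 libraries. Of 54 genes with such a symbol, among 55359 genes in the files, 48 were kept. All 48 were also among the 17190 genes tested. The other 6 were Psma8, the testis alpha subunit, Psmb11, the thymus catalytic subunit, and 4 pseudogenes (Psmb5-ps, Psmb6-ps, Psmb6-ps2 and Psmb7-ps2), each under 1 CPM in every library. The symbol rule also took in Psmc3ip, a meiotic recombination factor that is no proteasome subunit, and Psme2b, a copy of Psme2. Both are given apart from the subunits.

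The proteasome degrades ubiquitin-tagged proteins. Its 20S core is a barrel of outer rings of alpha subunits and inner rings of beta subunits, of which Psmb5, Psmb6 and Psmb7 cut peptide bonds. The 19S cap, built of ATPases encoded by Psmc genes and of further subunits encoded by Psmd genes, recognises tagged proteins, unfolds them and opens the core. Interferons induce Psmb8, Psmb9 and Psmb10, which take the places of Psmb5, Psmb6 and Psmb7 in newly assembled cores and make the immunoproteasome, and also Psme1 and Psme2, whose products form the PA28 activator ring. The immunoproteasome and PA28 are known for shaping the peptides loaded on class I molecules, and macrophages carry both forms of the core.

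RNA-seq of polyadenylated RNA was done on wildtype MPI-2 cells exposed to Mycobacterium abscessus and collected at day 5, uninfected cells at day 5, exposed cells at day 1 and uninfected cells at day 1. Each of the 4 groups had 4 libraries, labelled as biological replicates of a single cell line. P-values of the gene tests thus measure the spread between cultures of that line, shared per gene over the 4 groups. Cells of a wide range of passages were used, and the sources used here do not give the bacterial strain, the dose or the share of cells with bacteria. The series as a whole concerns senescence during long-lasting infection, which the genes described here do not measure.

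Total counts per library lay between 46154875 and 81995629. The exposed day 5 libraries differed most among themselves: the median SD of log2 CPM over the 48 genes was 0.238 in exposed day 5, 0.112 in uninfected day 5, 0.106 in exposed day 1 and 0.0891 in uninfected day 1 libraries. In the shared fit this wider spread entered the p-values of every comparison, also those without exposed day 5 libraries. In comparisons with exposed day 5 libraries it was averaged with the narrower spread of the other groups. Replicates 2 and 3 of the exposed day 5 group carry another series of library codes than the other 14 libraries, and calls that were lost without them are named with the gene. Macrophage and alveolar macrophage markers, 8 of each, were all above 1 CPM in every group, and none of 5 T cell and 4 B cell markers was. Summed macrophage markers ran from 7540 to 13000 CPM in exposed day 5, 3570 to 4050 in uninfected day 5, 5360 to 6170 in exposed day 1 and 3220 to 3540 in uninfected day 1 libraries. Summed alveolar macrophage markers ran from 7620 to 9840 CPM in exposed day 5, 18400 to 25900 in uninfected day 5, 10000 to 12600 in exposed day 1 and 15100 to 16700 in uninfected day 1 libraries. The lower sums in exposed cells came mainly from Chil3. Its mean was 2990 CPM in exposed and 16100 in uninfected day 5 libraries, and 5820 in exposed and 10200 in uninfected day 1 libraries. At day 5 the means of Pparg, Fabp4 and Ear2 were also lower, and those of Marco, Car4, Itgax and Siglecf higher. At day 1 those of Pparg, Ear2 and Car4 were lower, and those of Marco, Fabp4, Itgax and Siglecf higher. Epithelial markers came from Cdh1 alone (14 to 24.4 CPM for the sum of 5 in exposed day 5, 69.7 to 73.7 in uninfected day 5, 32.2 to 39.7 in exposed day 1 and 59.7 to 64.9 in uninfected day 1 libraries). Neutrophil markers came mainly from S100a8, and the sum of 5 ran from 406 to 879 CPM in exposed day 5, 446 to 613 in uninfected day 5, 761 to 1050 in exposed day 1 and 300 to 391 in uninfected day 1 libraries. Of 5 fibroblast and endothelial markers, 2 or 3 passed 1 CPM, with sums of 15.6 to 20.1 CPM in exposed day 5, 23 to 25.1 in uninfected day 5, 19.5 to 20.4 in exposed day 1 and 19.3 to 21.7 in uninfected day 1 libraries. Col1a2 had no read in any library, and Cd8a had none in any of the 4 groups. The macrophage, alveolar and Cdh1 sums moved with exposure at both days without overlap, and their part in the results was not tested.

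All 5 genes of the immunoproteasome and PA28 were higher in exposed than in uninfected cells at day 5, where 28.6% of all genes tested were higher, and at day 1, where 13.4% were. At day 5 the genes of the constitutive core and cap were spread around no change. At day 1 the core genes leaned higher, with a median log2 fold change of 0.233 and 7 of 14 called higher. The 17 cap genes leaned lower at day 1, with a median of -0.119. At day 5 the 5 genes rose 2.06- to 3.5-fold, and their median log2 fold change was 1.58. At day 1 they rose 1.61- to 3.14-fold, with a median of 0.971. The 31 constitutive genes of the 20S and 19S had medians of -0.0425 at day 5 and 0.0684 at day 1, against medians of 0.0223 and 0.0267 over all genes tested. In bulk RNA, more transcript per cell and more cells with the transcript cannot be told apart.

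Counted over all 48 genes at day 5, 17 were higher and 10 lower in exposed cells at an adjusted p under 0.05 (edgeR quasi-likelihood test, Benjamini-Hochberg over all genes tested), where 28.6% of all genes tested were higher and 28.4% lower. At day 1, 15 were higher and 2 lower, where 13.4% of all genes tested were higher and 10.5% lower. The lower count at day 1 was 1 without any 1 of the exposed day 1 libraries or uninfected day 1 replicate 1, 3 or 4. Without the 5 genes the counts were 12 higher and 10 lower of 43 at day 5, and 10 higher and 2 lower of 43 at day 1. Day 5 shares of the 43 thus lay near those of all genes. At day 1 23.3% of the 43 were higher and 4.65% lower, a lean upward against the 13.4% and 10.5% of all genes. Exposed and uninfected libraries did not overlap for 10 higher and 4 lower genes of the 48 at day 5, against 22.3% and 24.2% of all genes tested, and for 15 higher and 9 lower at day 1, against 19.6% and 19.7%. When library totals alone set the scale, the split over the 48 genes was 12 higher and 17 lower at day 5, against 17 and 10 with TMM factors (trimmed mean of M-values), the scaling used for all CPM values given. The 5 calls of a rise that were lost were those of Psma4, Psma7, Psmd11, Psme4 and Psmg4. On that scale 4217 of the 17190 genes tested were higher and 5667 lower at day 5, against 4918 and 4879 with TMM.

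**Figure D1:**
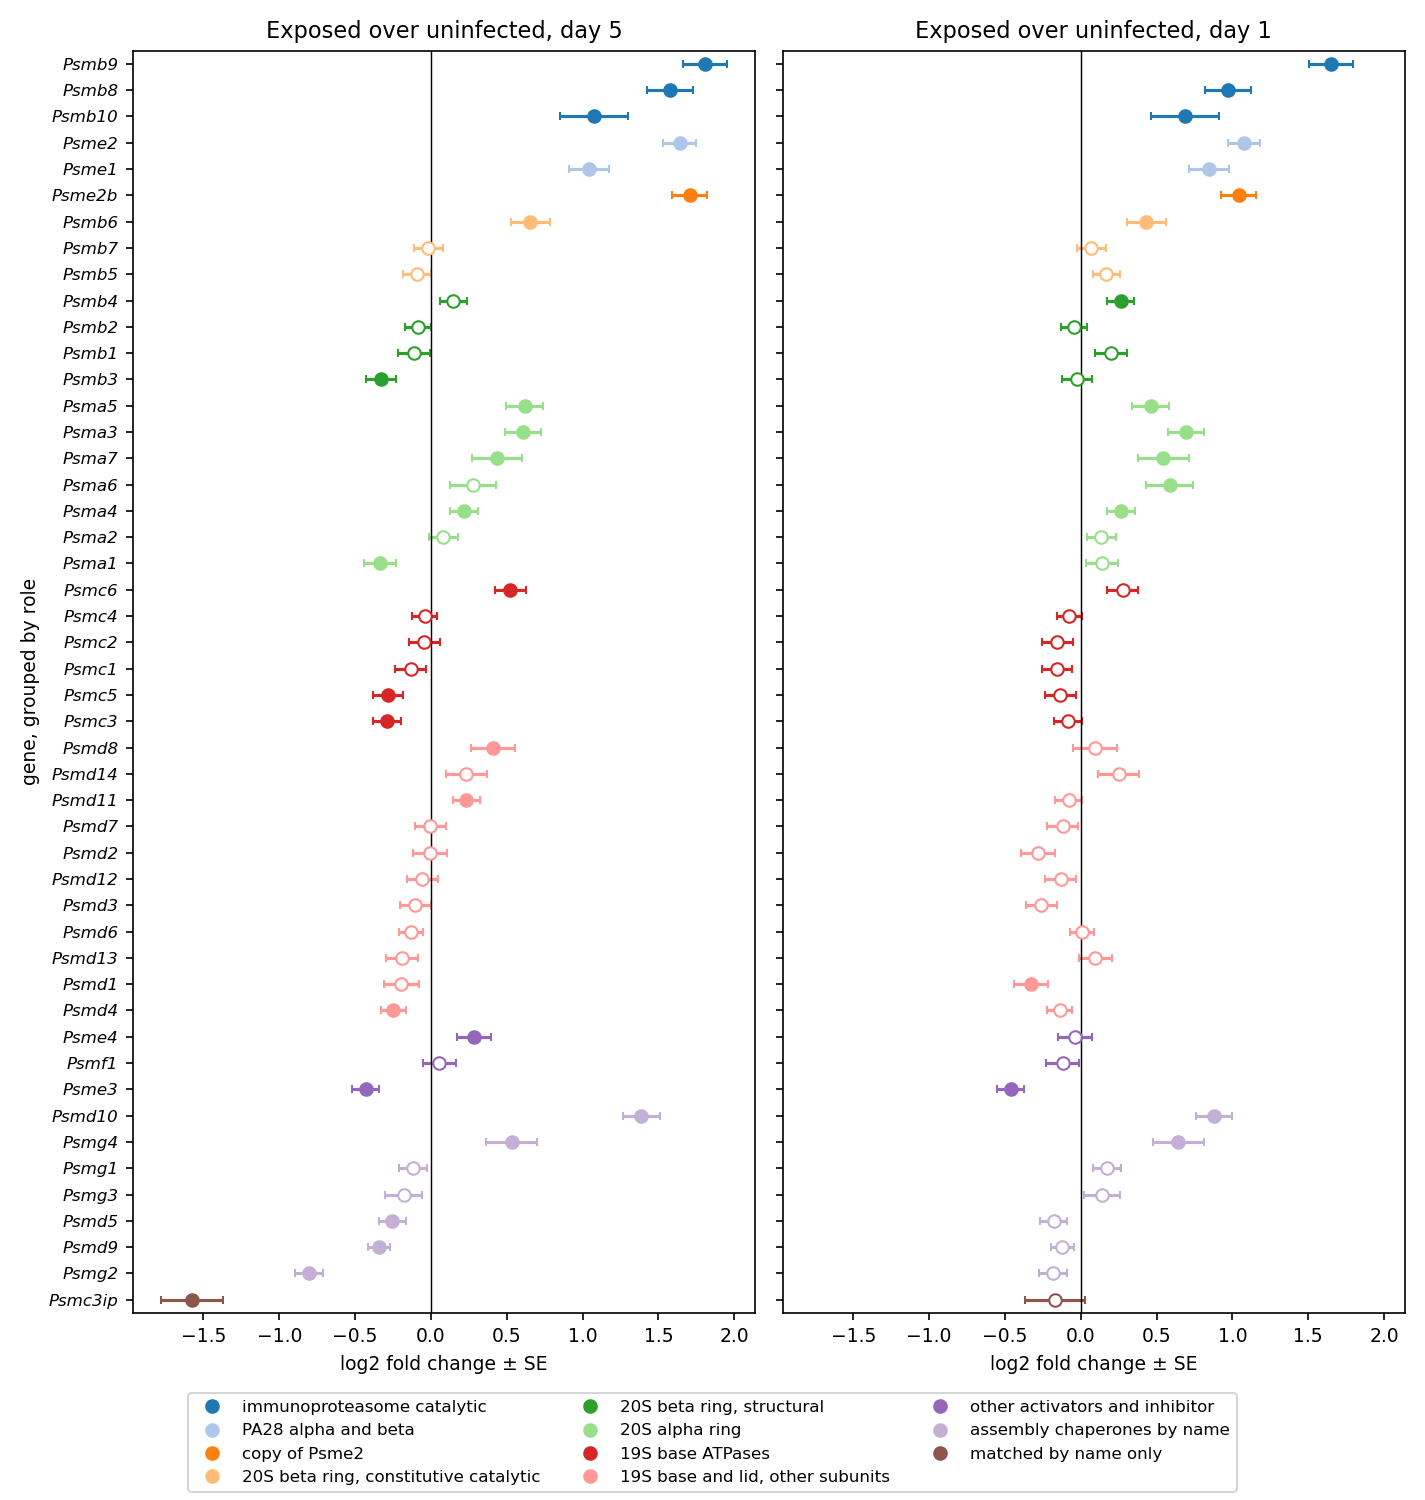
Log2 fold change with its SE of each of the 48 genes, exposed over uninfected cells, at day 5 (left) and day 1 (right). Genes run down the page by role, and filled points passed the test. The immunoproteasome and PA28 genes at the top sit between 1.04 and 1.81 at day 5, to the right of all 31 constitutive core and cap genes, while Psmd10, further down, reaches 1.39.

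Psmb8 encodes the immunoproteasome subunit that replaces Psmb5 and cuts after hydrophobic residues. Its level was 87.1, 142.5, 79.1 and 136.5 CPM in exposed day 5 replicates 1 to 4, and 36.8, 33.2, 41.3 and 38.1 CPM in uninfected day 5 replicates 1 to 4. At day 1 it was 72.1, 67.05, 59.4 and 58.5 CPM in exposed libraries and 33, 33.3, 33.1 and 31.8 CPM in uninfected ones. Exposed libraries lay above uninfected ones at both days without overlap, and exposed day 5 replicates 2 and 4 stood well above replicates 1 and 3. The log2 fold change was 1.58 ± 0.15 (SE) at day 5 (adjusted p = 6.61e-08) and 0.97 ± 0.15 at day 1 (adjusted p = 0.000151). Its effect of exposure was larger at day 5 by 0.605 ± 0.21 (adjusted p = 0.0308), but this difference did not pass in 9 of the 16 fits that left out 1 library. In those 9 the adjusted p was 0.0515 to 0.0708, on leaving out exposed day 5 replicate 2 or 4, uninfected day 5 replicate 1 or 2, exposed day 1 replicate 3 or 4, or uninfected day 1 replicate 1, 2 or 3.

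Psmb9 takes the place of Psmb6. It had 32.1, 49.65, 36.5 and 50.3 CPM in exposed day 5 libraries, against 11.15, 9.825, 14.6 and 12.6 CPM in uninfected day 5 libraries. In exposed day 1 libraries it had 28.7, 25.9, 22 and 26.3 CPM, against 8.83, 8.28, 8.4 and 7.22 CPM in uninfected day 1 libraries. Its lowest exposed library was above its highest uninfected library on each day. The log2 fold changes, 1.81 ± 0.14 (SE) at day 5 (adjusted p = 3.6e-09) and 1.65 ± 0.15 at day 1 (adjusted p = 1.21e-07), differed between days by 0.15, which did not pass the test. Psmb9 also rose between days in uninfected cells, by 0.56 ± 0.14 (adjusted p = 0.0103).

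Psmb10 takes the place of Psmb7 and was the least uniform of the 5. Exposed day 5 libraries had 42.9, 75.1, 30 and 84.8 CPM, and uninfected day 5 libraries had 28.1, 24.7, 30.9 and 26.9 CPM. Exposed day 1 libraries had 53.7, 47.85, 43.85 and 43.4 CPM, and uninfected day 1 libraries had 28.65, 31.7, 29.2 and 27.8 CPM. At day 5 the exposed replicate 3 lay inside the uninfected range, while replicates 2 and 4 lay far above it. At day 1 the groups did not overlap. The log2 fold change was 1.07 ± 0.23 (SE) at day 5 (adjusted p = 0.000633) and 0.69 ± 0.22 at day 1 (adjusted p = 0.0354). The day 1 call rests on all 8 libraries: it was lost on leaving out any 1 of them, with adjusted p of 0.0552 to 0.0908. In a fit on the day 1 libraries alone, which leaves the wide exposed day 5 spread out of the error, the adjusted p was 4.77e-07. The effect at day 5 was larger than at day 1 by 0.39 ± 0.32, which did not pass, and by 0.60 without exposed day 5 replicate 3, which did (adjusted p = 0.0412).

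Psme1 and Psme2 encode PA28 alpha and beta, whose ring docks on the core and helps peptides leave it. Psme1 had 151.5, 261, 153 and 211 CPM in exposed day 5 libraries, 91.4, 87.9, 99.9 and 97.9 CPM in uninfected day 5 libraries, 164, 150.3, 142 and 136 CPM in exposed day 1 libraries and 82.7, 88.4, 80.2 and 78.4 CPM in uninfected day 1 libraries. Psme2 had 429, 655, 496 and 561 CPM in exposed day 5, 168, 153, 178 and 189 CPM in uninfected day 5, 355, 338, 333 and 351 CPM in exposed day 1 and 164, 167, 165 and 156 CPM in uninfected day 1 libraries. For both genes every exposed library was above every uninfected library of its day. Psme1 rose by 1.04 ± 0.13 (SE) at day 5 (adjusted p = 1.67e-06) and 0.85 ± 0.13 at day 1 (adjusted p = 0.000145) on the log2 scale. Psme2 rose by 1.64 ± 0.11 at day 5 (adjusted p = 1.91e-10) and 1.08 ± 0.10 at day 1 (adjusted p = 4.47e-07), and its effect was larger at day 5 by 0.56 ± 0.15 (adjusted p = 0.00587). Per kilobase of the principal transcript, Psme2 averaged 556 ± 99.8 CPM in exposed day 5 libraries and 179 ± 15.9 CPM in uninfected day 5 libraries (SD over 4 libraries each).

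Psme2b followed Psme2 closely, with log2 fold changes of 1.71 ± 0.12 (SE) at day 5 (adjusted p = 3.52e-10) and 1.04 ± 0.11 at day 1 (adjusted p = 2.23e-06). It held 6.49% to 8.24% of the counts of the pair in every library. How reads shared by these near-identical copies were assigned was not stated in the labels, so the level of Psme2b is uncertain. With the counts of both summed as 1 gene, the log2 fold change was 1.64 at day 5 and 1.08 at day 1.

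**Figure D2:**
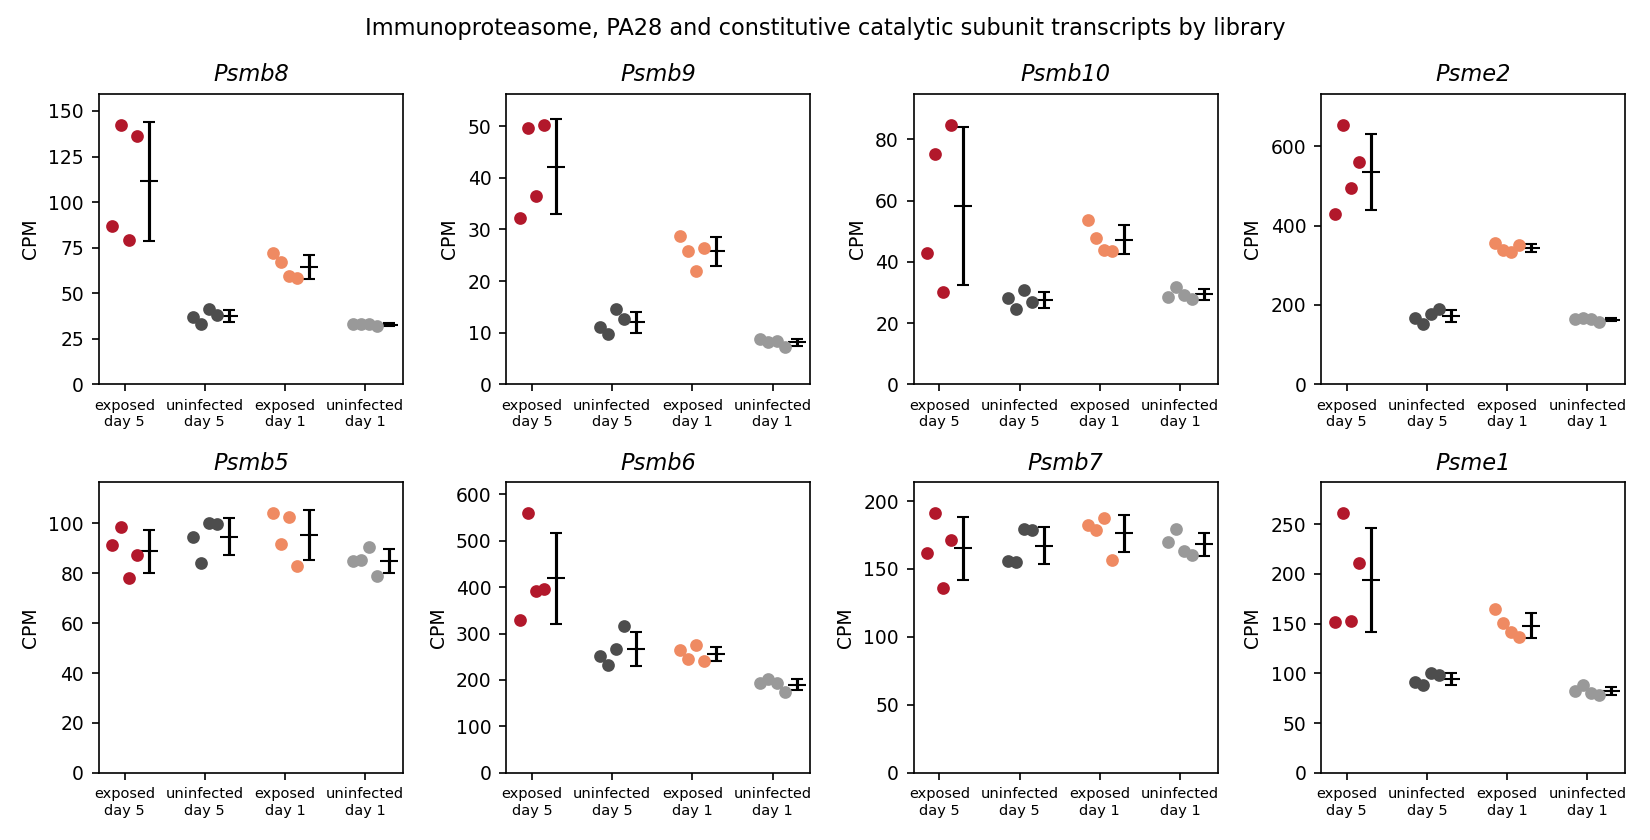
TMM-scaled CPM of 8 genes in each library (points, replicates 1 to 4 from left to right), with mean and SD beside them, on axes that start at 0. Exposed day 5 replicates 2 and 4 hold the highest Psmb8 and Psmb10 values, and Psmb5 and Psmb7 show about the same level in all 4 groups.

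Promoter windows of these genes are printed for the members that moved together, from RefSeq on GRCm38.p6, an older build than the one the reads were aligned to. Each is 300 bases long and ends shortly past an annotated gene start, in lower case and 5′ to 3′ on the gene's strand, and capitals mark a match to a motif searched. The windows are Psmb8 at chr17:34197945-34198244 (+), Psmb9 at chr17:34187281-34187580 (-), Psme1 at chr14:55578244-55578543 (+) and 1 of the windows of Psme2 at chr14:55591052-55591351 (-).
Psmb8: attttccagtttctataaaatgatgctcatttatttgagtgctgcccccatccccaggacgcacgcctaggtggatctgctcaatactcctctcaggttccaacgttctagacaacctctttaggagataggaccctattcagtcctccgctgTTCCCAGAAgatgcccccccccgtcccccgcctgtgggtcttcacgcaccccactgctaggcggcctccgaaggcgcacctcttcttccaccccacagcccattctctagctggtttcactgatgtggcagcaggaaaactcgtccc
Psmb9: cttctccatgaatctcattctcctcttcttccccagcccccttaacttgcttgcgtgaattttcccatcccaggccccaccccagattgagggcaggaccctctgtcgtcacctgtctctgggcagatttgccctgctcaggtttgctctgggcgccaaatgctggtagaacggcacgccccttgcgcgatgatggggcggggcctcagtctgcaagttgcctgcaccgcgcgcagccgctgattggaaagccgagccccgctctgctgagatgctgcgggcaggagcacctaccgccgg
Psme1: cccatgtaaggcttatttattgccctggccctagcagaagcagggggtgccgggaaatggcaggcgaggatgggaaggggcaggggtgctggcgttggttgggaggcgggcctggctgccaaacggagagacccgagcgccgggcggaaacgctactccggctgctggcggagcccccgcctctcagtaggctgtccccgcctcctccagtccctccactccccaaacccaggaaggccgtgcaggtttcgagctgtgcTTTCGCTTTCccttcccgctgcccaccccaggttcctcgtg
Psme2: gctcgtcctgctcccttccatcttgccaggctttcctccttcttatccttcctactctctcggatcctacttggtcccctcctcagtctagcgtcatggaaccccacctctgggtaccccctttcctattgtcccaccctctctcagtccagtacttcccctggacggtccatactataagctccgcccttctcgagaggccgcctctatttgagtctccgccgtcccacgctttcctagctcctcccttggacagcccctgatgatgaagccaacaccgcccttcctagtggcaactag

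Windows were found for 41 of the 48 genes, 44 windows in all, and 3 motif cores were searched on both strands. The core of the interferon-stimulated response element, searched as GAAA, any 2 bases and GAAA, was in 5 of the 44 windows (11.4%), those of Psmb3, Psmd4, Psmd9, Psme1 and Psmg4, against 3.44% of 32851 promoter windows in the table. In the Psme1 window printed above it begins at base 9 after the start, on the opposite strand. The core of the gamma-activated site, TTCNNNGAA, a palindrome, was in 3 windows (6.82%), those of Psmb8, Psmd2 and Psmg1, against 8.3% of all windows, and in Psmb8 it begins at -97. The antioxidant response element core TGACNNNGC, the kind of site bound by Nfe2l1 and Nfe2l2, was in 6 windows (13.6%), those of Psmb5, Psmb6, Psmc6, Psmd9, Psmd12 and Psme4, against 12.4% of all. The Psmb9, Psmb10 and Psme2 windows held none of the 3. A match describes letters in a window and nothing more, and these cores can overlap each other.

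Psmb5, Psmb6 and Psmb7, the constitutive catalytic genes that the immunoproteasome genes are set against, did not move as a group. Psmb5, the chymotrypsin-like subunit, had 91.4, 98.4, 78 and 87.5 CPM in exposed day 5, 94.6, 84.2, 100 and 99.9 CPM in uninfected day 5, 104, 91.8, 103 and 82.8 CPM in exposed day 1 and 84.7, 85.4, 90.5 and 78.75 CPM in uninfected day 1 libraries. Psmb7, the trypsin-like subunit, had 162, 191, 136 and 172 CPM in exposed day 5, 156, 155, 179 and 178.5 CPM in uninfected day 5, 183, 178.5, 188 and 157 CPM in exposed day 1 and 170, 179.6, 163 and 160.2 CPM in uninfected day 1 libraries. For both genes the groups overlapped at each day. Their log2 fold changes were -0.09 ± 0.09 (SE) and -0.02 ± 0.10 at day 5 and 0.17 ± 0.09 and 0.07 ± 0.10 at day 1, and none of the 4 passed the test, although with library totals as the scale Psmb5 was called lower at day 5 (-0.18).

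Psmb6, the caspase-like subunit, was the constitutive catalytic gene that rose. It had 329, 559, 392 and 395 CPM in exposed day 5 libraries and 251, 232, 266 and 316 CPM in uninfected day 5 libraries. Exposed day 1 libraries had 263.5, 245, 275 and 242 CPM and uninfected day 1 libraries had 193, 202, 192.5 and 174 CPM. The groups did not overlap at either day, and exposed day 5 replicate 2 was far above the rest. The log2 fold change was 0.65 ± 0.13 (SE) at day 5 (adjusted p = 0.000239) and 0.43 ± 0.13 at day 1 (adjusted p = 0.0199). The day 1 call was lost without exposed replicate 3 (adjusted p = 0.0613) or uninfected replicate 4 (adjusted p = 0.0707). It was kept in a fit on the day 1 libraries alone. In uninfected cells Psmb6 was also higher at day 5 than at day 1, by 0.49 ± 0.13 (adjusted p = 0.0118).

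Within each library the ratio of an immunoproteasome gene to its constitutive counterpart needs no scaling between libraries. The log2 ratio of Psmb8 to Psmb5 averaged 0.28 ± 0.36 in exposed and -1.34 ± 0.05 in uninfected day 5 libraries, and -0.57 ± 0.15 in exposed and -1.37 ± 0.06 in uninfected day 1 libraries (SD over 4 libraries each). The difference was 1.62 at day 5 and 0.80 at day 1. For Psmb9 over Psmb6 the log2 ratios averaged -3.31 ± 0.23 in exposed and -4.47 ± 0.20 in uninfected day 5 libraries, a difference of 1.16, and -3.32 ± 0.22 in exposed and -4.54 ± 0.07 in uninfected day 1 libraries, a difference of 1.22. The log2 ratio of Psmb10 to Psmb7 differed by 0.98 at day 5 (-1.61 ± 0.53 in exposed, -2.60 ± 0.12 in uninfected) and by 0.62 at day 1 (-1.90 ± 0.14 in exposed, -2.52 ± 0.04 in uninfected). In each of the 6 comparisons all exposed libraries were above all uninfected ones, which gives 0.0286 in a two-sided exact permutation test, the smallest p that 4 against 4 libraries allow, and 0.0286 after adjustment over the 6. Psmb10 over Psmb7 at day 5 had an exact p of 0.0571 on leaving out any 1 of the 4 uninfected libraries. With exposed day 5 replicates 1 and 4 alone the day 5 differences were 1.63, 1.31 and 1.13 for Psmb8, Psmb9 and Psmb10, with an exact p of 0.0667 each, the smallest that 2 against 4 libraries allow.

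Set per length of the principal transcript, Psmb8 made up 40.3% ± 5.94 of the sum of Psmb8 and Psmb5 in exposed day 5, 17.9% ± 0.496 in uninfected day 5, 27.2% ± 2.02 in exposed day 1 and 17.6% ± 0.603 in uninfected day 1 libraries (SD over 4 libraries each). Psmb10 made up 22.9% ± 6.4 of its pair in exposed day 5, 12.8% ± 0.894 in uninfected day 5, 19.2% ± 1.49 in exposed day 1 and 13.4% ± 0.301 in uninfected day 1 libraries. Psmb9 had the smallest share, 5.66% ± 0.911 in exposed day 5, 2.61% ± 0.362 in uninfected day 5, 5.62% ± 0.746 in exposed day 1 and 2.48% ± 0.122 in uninfected day 1 libraries. So the constitutive transcript exceeded its counterpart per length in every library and pair. The level of a share depends on the length used: with all annotated exons joined, a choice made after seeing the data, Psmb8 had 24.6% in exposed day 5 and 9.49% in uninfected day 5 libraries, and Psmb10 had 39.8% in exposed day 5 and 24.9% in uninfected day 5 libraries.

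**Figure D3:**
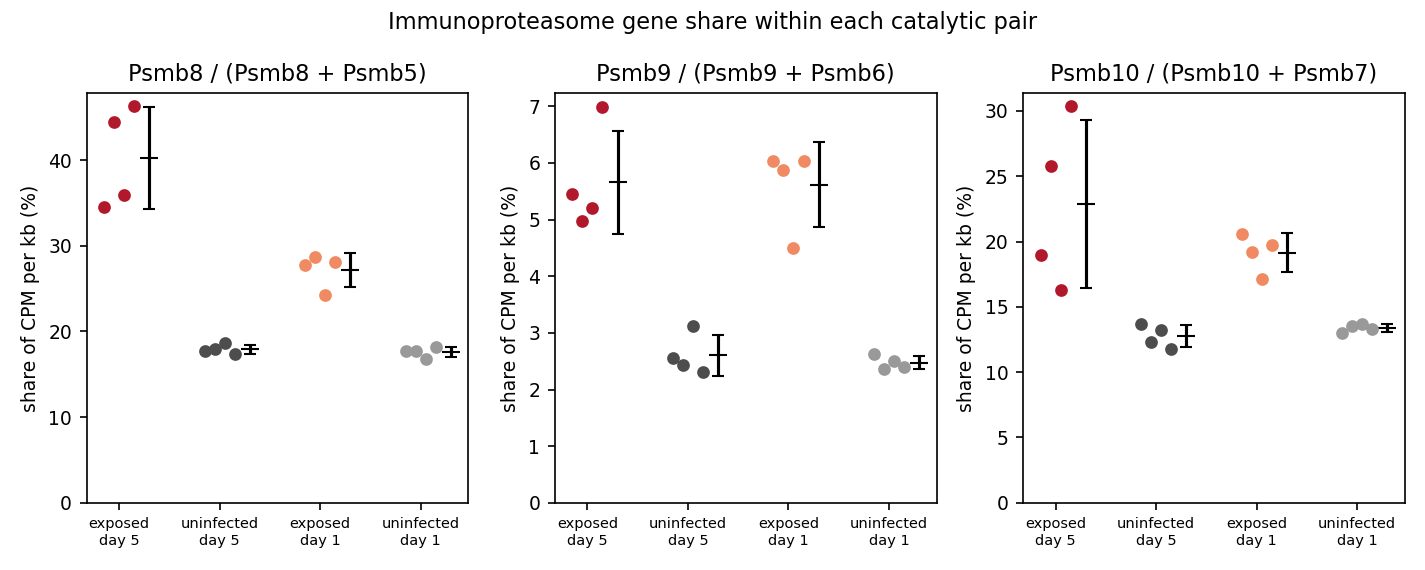
Share of the immunoproteasome gene in the summed CPM per kilobase of its catalytic pair, in percent, for each library (points) with mean and SD beside them. All exposed libraries lie above the uninfected libraries of their day in each pair, and the axes differ, with Psmb9 at 2.31% to 6.99%.

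In the alpha ring, which gates the core, 4 of 7 genes were higher and 1 lower at day 5, where 28.6% of all genes tested were higher and 28.4% lower, and 5 of 7 were higher at day 1, where 13.4% of all genes were. Psma5 had 200.1, 244, 273 and 198 CPM in exposed day 5, 136.5, 124, 145 and 189 CPM in uninfected day 5, 168, 180.4, 184 and 184 CPM in exposed day 1 and 129.5, 146, 125.5 and 119 CPM in uninfected day 1 libraries. Its groups did not overlap, and it rose by 0.62 ± 0.12 (SE) at day 5 (adjusted p = 0.000236) and 0.46 ± 0.12 at day 1 (adjusted p = 0.00994) on the log2 scale. Psma3 rose by 0.61 ± 0.12 at day 5 (adjusted p = 0.000214) and 0.69 ± 0.12 at day 1 (adjusted p = 0.000349), and was, with Psma5, the alpha gene whose groups did not overlap at either day. Psma6 rose at day 1 by 0.59 ± 0.15 (adjusted p = 0.00949). At day 5 its log2 fold change was 0.28 ± 0.15, which passed on leaving out replicate 4 of the exposed (adjusted p = 0.0159) or of the uninfected group (adjusted p = 0.0247).

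Psma7 and Psma4 were called higher at both days, with adjusted p nearer to the threshold than those of Psma3 and Psma5. Psma7 rose by 0.44 ± 0.17 (SE) at day 5 (adjusted p = 0.0324) and 0.55 ± 0.17 at day 1 (adjusted p = 0.0242). With exposed replicates 1 and 4 alone the day 5 log2 fold change was 0.06 (adjusted p = 0.755). The day 5 call was also lost without exposed replicate 2 or 3 or uninfected replicate 1, 2 or 3 (adjusted p = 0.0636 to 0.152), and its day 1 call without replicate 3 or 4 of the exposed or 1 or 4 of the uninfected group (adjusted p = 0.0536 to 0.0756). Psma4 rose by 0.22 ± 0.09 at day 5 (adjusted p = 0.0496) and 0.26 ± 0.09 at day 1 (adjusted p = 0.0429). With exposed replicates 1 and 4 alone the day 5 value was 0.09 (adjusted p = 0.427). The day 5 call was also lost without exposed replicate 2 or 3 or uninfected replicate 1, 2 or 3 (adjusted p = 0.0551 to 0.196), and its day 1 call without exposed replicate 1, 2 or 3 or uninfected replicate 1, 3 or 4 (adjusted p = 0.098 to 0.126). The Psma4 call at day 1 was lost as well under RLE scaling (adjusted p = 0.0782), DESeq2 (adjusted p = 0.0663), a fit on all genes with a read (adjusted p = 0.146) and a replicate block (adjusted p = 0.0542). A fit on the day 5 libraries alone lost both day 5 calls (adjusted p = 0.0988 for Psma7 and 0.122 for Psma4). A fit on the day 1 libraries alone kept both day 1 calls.

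Psma1 was the alpha gene that went the other way at day 5. It had 164, 192, 207 and 146 CPM in exposed day 5, 212, 197.5, 239.8 and 248 CPM in uninfected day 5, 190.1, 189, 197 and 169 CPM in exposed day 1 and 171, 187, 161 and 156 CPM in uninfected day 1 libraries. Exposed and uninfected day 5 libraries overlapped, and the level rose between days in uninfected cells, by 0.41 ± 0.11 on the log2 scale (adjusted p = 0.0103). Exposed cells were lower at day 5 by a log2 fold change of -0.34 ± 0.11 (SE; adjusted p = 0.0102), against 0.14 ± 0.11 at day 1, which did not pass. The effect of exposure differed between the days by -0.48 ± 0.15 (adjusted p = 0.0168). Psma2 passed at neither day (0.08 at day 5, 0.13 at day 1).

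At day 1, genes with short transcripts tended to have higher fold changes throughout. Spearman's rho between log2 fold change and principal transcript length was -0.223 over 17069 genes and -0.471 over the 48 at day 1, and 0.0195 and -0.154 at day 5, given as a description, since genes of a library share its RNA and depth. Between uninfected day 5 and uninfected day 1 libraries it was -0.231 and -0.438. In that comparison the median log2 fold change was 0.184 for the 14 core genes and -0.117 for the 17 cap genes. It shares the uninfected day 1 libraries with the day 1 comparison. The median of the alpha ring at day 1 was 0.462, and 0.35 after subtracting the median of genes of like length. At day 5 the 2 values of the alpha ring were 0.277 and 0.278. At day 1 the median of the constitutive catalytic beta genes went from 0.168 to -0.0264 by this step. That of the structural beta genes went from 0.09 to -0.0736, and that of the assembly chaperones from 0.14 to -0.0544. The medians of the cap moved further below 0, from -0.108 to -0.182 for the base ATPases and from -0.119 to -0.194 for the other 19S subunits. The immunoproteasome catalytic genes went from 0.971 to 0.897, and PA28 alpha and beta from 0.962 to 0.767. Of the alpha genes with long principal transcripts, Psma3 (2846 bases) was called higher at both days and Psma2 (2911 bases) at neither. The part of transcript length, or of the shared libraries, in the day 1 values was not tested.

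**Figure D4:**
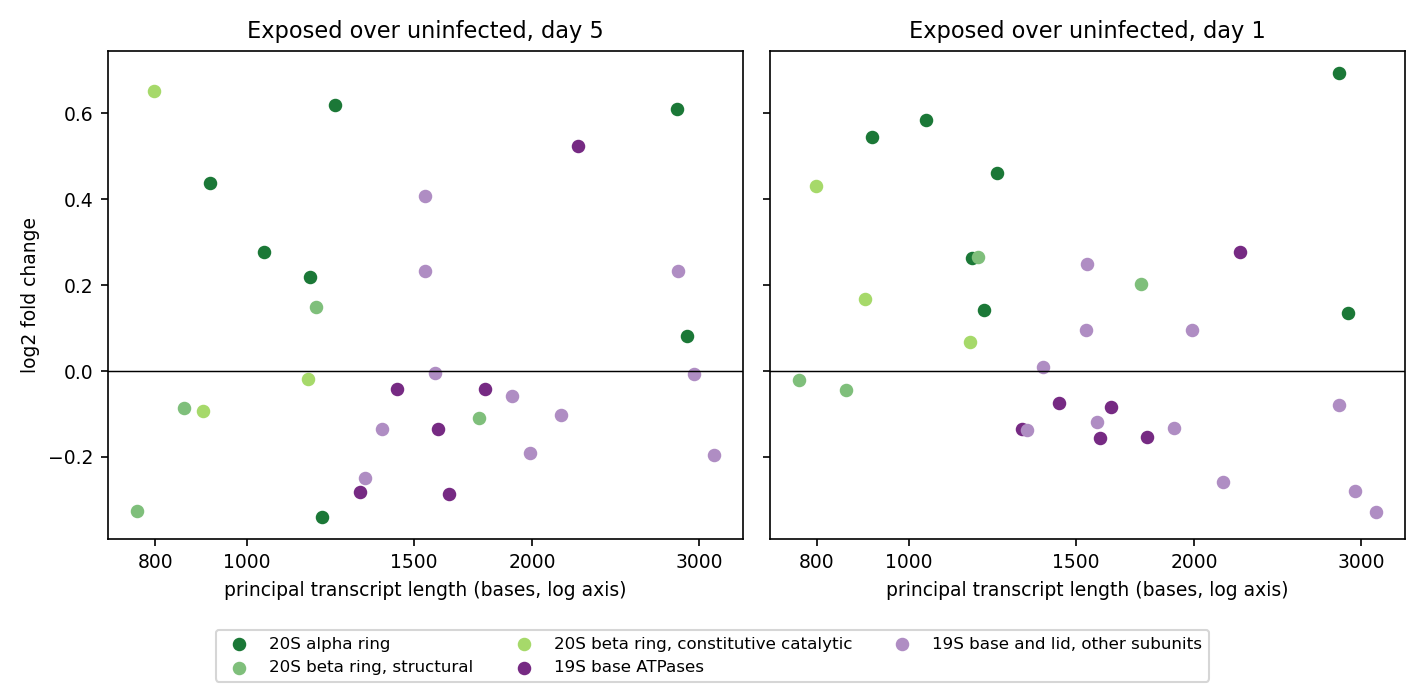
Log2 fold change of the 31 constitutive 20S and 19S genes, exposed over uninfected cells, against the length of the principal transcript (log axis), at day 5 and at day 1. At day 1 most 20S genes (green) lie above 0 and most 19S genes (purple) below it, with shorter transcripts among the 20S genes.

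Of the 4 structural beta genes, 1 was lower at day 5 (28.4% of all genes tested) and 1 was higher at day 1 (13.4% of all genes tested). Psmb3 had 106, 132, 94.8 and 104.5 CPM in exposed day 5, 139.6, 126, 148 and 134 CPM in uninfected day 5, 146, 129, 137.5 and 113 CPM in exposed day 1 and 132, 142, 135.5 and 123 CPM in uninfected day 1 libraries. Exposed day 5 replicate 2 lay among the uninfected libraries and the other 3 below them, and the log2 fold change was -0.33 ± 0.10 (SE; adjusted p = 0.00858), against -0.02 ± 0.10 at day 1. Psmb4 had 159.7, 191, 147 and 156 CPM in exposed day 5, 151, 132, 150.3 and 156 CPM in uninfected day 5, 165, 154, 164.5 and 143 CPM in exposed day 1 and 129, 140.1, 133 and 119 CPM in uninfected day 1 libraries. It rose at day 1 by 0.26 ± 0.09 (adjusted p = 0.0355), a call lost without exposed replicate 1, 2 or 3 or uninfected replicate 1, 3 or 4 (adjusted p = 0.0624 to 0.125), under RLE scaling (adjusted p = 0.0691), DESeq2 (adjusted p = 0.0554) and a replicate block (adjusted p = 0.0502), and in a fit on all genes with a read (adjusted p = 0.14). The Psmb4 call was kept in a fit on the day 1 libraries alone. Psmb1 and Psmb2 passed at neither day.

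Among the 17 genes of the 19S cap, 3 were higher and 3 lower at day 5, where 28.6% of all genes tested were higher and 28.4% lower, and 1 was lower at day 1, where 10.5% of all genes were. At day 1 exposed libraries nevertheless lay below uninfected ones without overlap for 6 of the 17 cap genes (Psmc1, Psmc2, Psmc5, Psmd1, Psmd2 and Psmd7), where 19.7% of all genes tested did so. The median log2 fold change of the 17 was -0.0582 at day 5 and -0.119 at day 1. Between uninfected day 5 and uninfected day 1 libraries, 7 of the 17 were lower without overlap, where 17.9% of all genes tested were. Psmc6, an ATPase of the base, was the gene whose rise at day 5 was without overlap between groups. It had 125, 169, 161.5 and 125 CPM in exposed day 5, 100.2, 91.85, 101 and 111 CPM in uninfected day 5, 111, 121, 123.5 and 113 CPM in exposed day 1 and 100.3, 109, 90.2 and 87.9 CPM in uninfected day 1 libraries. Its log2 fold change was 0.52 ± 0.10 (SE) at day 5 (adjusted p = 0.000248) and 0.28 ± 0.10 at day 1, which passed on leaving out uninfected replicate 2 (adjusted p = 0.0397). Psmc3, another base ATPase, had 99.3, 121.5, 98.6 and 90.8 CPM in exposed day 5, 124.5, 119, 121 and 136 CPM in uninfected day 5, 137, 127, 131 and 107 CPM in exposed day 1 and 135, 136, 135.5 and 125 CPM in uninfected day 1 libraries. Exposed day 5 replicate 2 overlapped the uninfected range, and the gene was lower by -0.29 ± 0.09 at day 5 (adjusted p = 0.0123). Psmc5 was lower by -0.28 ± 0.10 at day 5 (adjusted p = 0.0218), a call lost without exposed replicate 3 or uninfected replicate 1 or 3 (adjusted p = 0.0507 to 0.0627) or with exposed replicates 1 and 4 alone (adjusted p = 0.0651).

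Psmd8, a lid subunit, had 290, 508, 261 and 376 CPM in exposed day 5, 263, 256, 286 and 277 CPM in uninfected day 5, 307, 281.5, 299 and 252 CPM in exposed day 1 and 257, 293, 265 and 252 CPM in uninfected day 1 libraries. Its log2 fold change of 0.41 ± 0.15 (SE) at day 5 (adjusted p = 0.0229) rested on exposed replicate 2, without which it was 0.19 (adjusted p = 0.135), and was also lost without exposed replicate 4 or uninfected replicate 1 or 2 (adjusted p = 0.0511 to 0.0599). Psmd11, also of the lid, was higher at day 5 by 0.23 ± 0.09 (adjusted p = 0.0281), a call lost without exposed replicate 2 or 4 or any 1 of the uninfected libraries (adjusted p = 0.0501 to 0.126). Psmd4, the ubiquitin receptor Rpn10, had 109.8, 127, 97.2 and 115 CPM in exposed day 5, 135, 127, 134 and 138 CPM in uninfected day 5, 132.5, 123, 125 and 109.6 CPM in exposed day 1 and 138, 139, 135 and 127 CPM in uninfected day 1 libraries. Exposed day 5 replicate 2 overlapped the uninfected libraries, the other 3 lay below them, and the log2 fold change was -0.25 ± 0.08 (adjusted p = 0.0144). In a fit on the day 5 libraries alone the calls of Psmd4, Psmd8 and Psmd11 were lost (adjusted p = 0.0527, 0.0809 and 0.0946). The Psmd4 call was also lost in a fit on all genes with a read (adjusted p = 0.0613). Psmd1, the large scaffold of the base, was lower at day 1 by -0.33 ± 0.11 (adjusted p = 0.0416), a call lost on leaving out any 1 of the 8 day 1 libraries (adjusted p = 0.0601 to 0.141). It was kept in a fit on the day 1 libraries alone, and over all alternatives the log2 fold change was -0.362 to -0.266.

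Summed over the 14 constitutive 20S genes, the level was 2848 ± 385 CPM in exposed day 5, 2421 ± 292 in uninfected day 5, 2540 ± 117 in exposed day 1 and 2019 ± 143 in uninfected day 1 libraries (SD over 4 libraries each). The 17 cap genes summed to 2395 ± 353 CPM in exposed day 5, 2368 ± 63.9 in uninfected day 5, 2366 ± 167 in exposed day 1 and 2507 ± 91.5 in uninfected day 1 libraries. Psmb8, Psmb9 and Psmb10 together summed to 211.7 ± 67.1 CPM in exposed day 5, 77.05 ± 7.8 in uninfected day 5, 137.2 ± 13.4 in exposed day 1 and 70.32 ± 2.65 in uninfected day 1 libraries. These sums are descriptions, dominated by the genes with the most reads.

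Among the other activators, Psme3 fell and Psme4 was called higher at day 5. Psme3 encodes PA28 gamma, the nuclear relative of PA28 alpha and beta. It had 128, 136, 102 and 137.5 CPM in exposed day 5, 173, 173, 175 and 158 CPM in uninfected day 5, 149, 158, 153 and 129.5 CPM in exposed day 1 and 204, 204, 201 and 203 CPM in uninfected day 1 libraries. No exposed library reached the uninfected libraries of its day, and the log2 fold change was -0.43 ± 0.09 (SE) at day 5 (adjusted p = 0.000402) and -0.46 ± 0.09 at day 1 (adjusted p = 0.00109). Psme4 encodes the activator PA200. It had 89.7, 124, 72.8 and 104 CPM in exposed day 5, 80.7, 84.3, 78.9 and 76.6 CPM in uninfected day 5, 84.5, 87.8, 85 and 83.1 CPM in exposed day 1 and 87.95, 91.05, 80.1 and 90.4 CPM in uninfected day 1 libraries. The day 5 groups overlapped, and its log2 fold change of 0.28 ± 0.11 (adjusted p = 0.0348) was 0.15 without exposed replicate 2 (adjusted p = 0.182) and lost its call also without exposed replicate 4 or uninfected replicate 1, 3 or 4 (adjusted p = 0.0639 to 0.0854). Psmf1, the inhibitor PI31, passed at neither day.

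Psmd10, known as gankyrin and a chaperone of 19S base assembly, had the largest rise outside the interferon-inducible genes and Psme2b. It had 164, 224, 192 and 155 CPM in exposed day 5 and 65.2, 59, 72.7 and 84.1 CPM in uninfected day 5 libraries. Exposed day 1 libraries had 111, 104.5, 121 and 103 CPM and uninfected day 1 libraries had 60.4, 67.5, 57.4 and 53.6 CPM. The groups were far apart at both days, and the log2 fold change was 1.39 ± 0.12 (SE) at day 5 (adjusted p = 1.1e-08) and 0.88 ± 0.12 at day 1 (adjusted p = 2.92e-05). The effect was larger at day 5 by 0.51 ± 0.17 (adjusted p = 0.0239). That difference was lost without uninfected day 5 replicate 1 or 2 or uninfected day 1 replicate 2 (adjusted p = 0.0519 to 0.0579), and was 0.30 with exposed day 5 replicates 1 and 4 alone (adjusted p = 0.109).

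Psmg2, a chaperone of alpha ring assembly, went down where Psmd10 went up. It had 13.8, 10.9, 10.3 and 10.7 CPM in exposed day 5, 20.8, 19.4, 21.4 and 18.2 CPM in uninfected day 5, 20.3, 20.2, 21.6 and 19.6 CPM in exposed day 1 and 22.55, 25.65, 22.6 and 22 CPM in uninfected day 1 libraries. All exposed day 5 libraries were below all uninfected day 5 libraries, with a log2 fold change of -0.81 ± 0.09 (SE; adjusted p = 5.04e-07), against -0.18 at day 1, which did not pass although the groups did not overlap. The difference of the effects was -0.62 (adjusted p = 0.00112). Psmg4, another core chaperone, rose by 0.53 ± 0.17 at day 5 (adjusted p = 0.0113) and 0.64 ± 0.17 at day 1 (adjusted p = 0.0102), the day 5 call being lost without exposed replicate 3 (adjusted p = 0.0508) or with exposed replicates 1 and 4 alone (adjusted p = 0.0533). The 19S chaperones Psmd9 and Psmd5 were lower at day 5, by -0.34 ± 0.07 (adjusted p = 0.000643) and -0.26 ± 0.09 (adjusted p = 0.0208), and the Psmd5 call was lost without replicate 3 of the exposed (adjusted p = 0.0592) or the uninfected group (adjusted p = 0.078). The Psmd5 call was also lost in fits on the day 5 libraries alone (adjusted p = 0.0555) and on all genes with a read (adjusted p = 0.0612). Psmg1 and Psmg3 passed at neither day. Psmc3ip, the recombination factor taken in by name alone, had 7.58, 4.135, 8.62 and 3.45 CPM in exposed day 5, 17.5, 17.1, 18.9 and 17.45 CPM in uninfected day 5, 19.4, 17.7, 17.5 and 16.3 CPM in exposed day 1 and 19.9, 22.6, 18.8 and 18.4 CPM in uninfected day 1 libraries. Exposed libraries were below uninfected ones at day 5 and overlapped them at day 1. At day 5 the gene had a log2 fold change of -1.58 ± 0.20 (adjusted p = 3.58e-06).

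**Figure D5:**
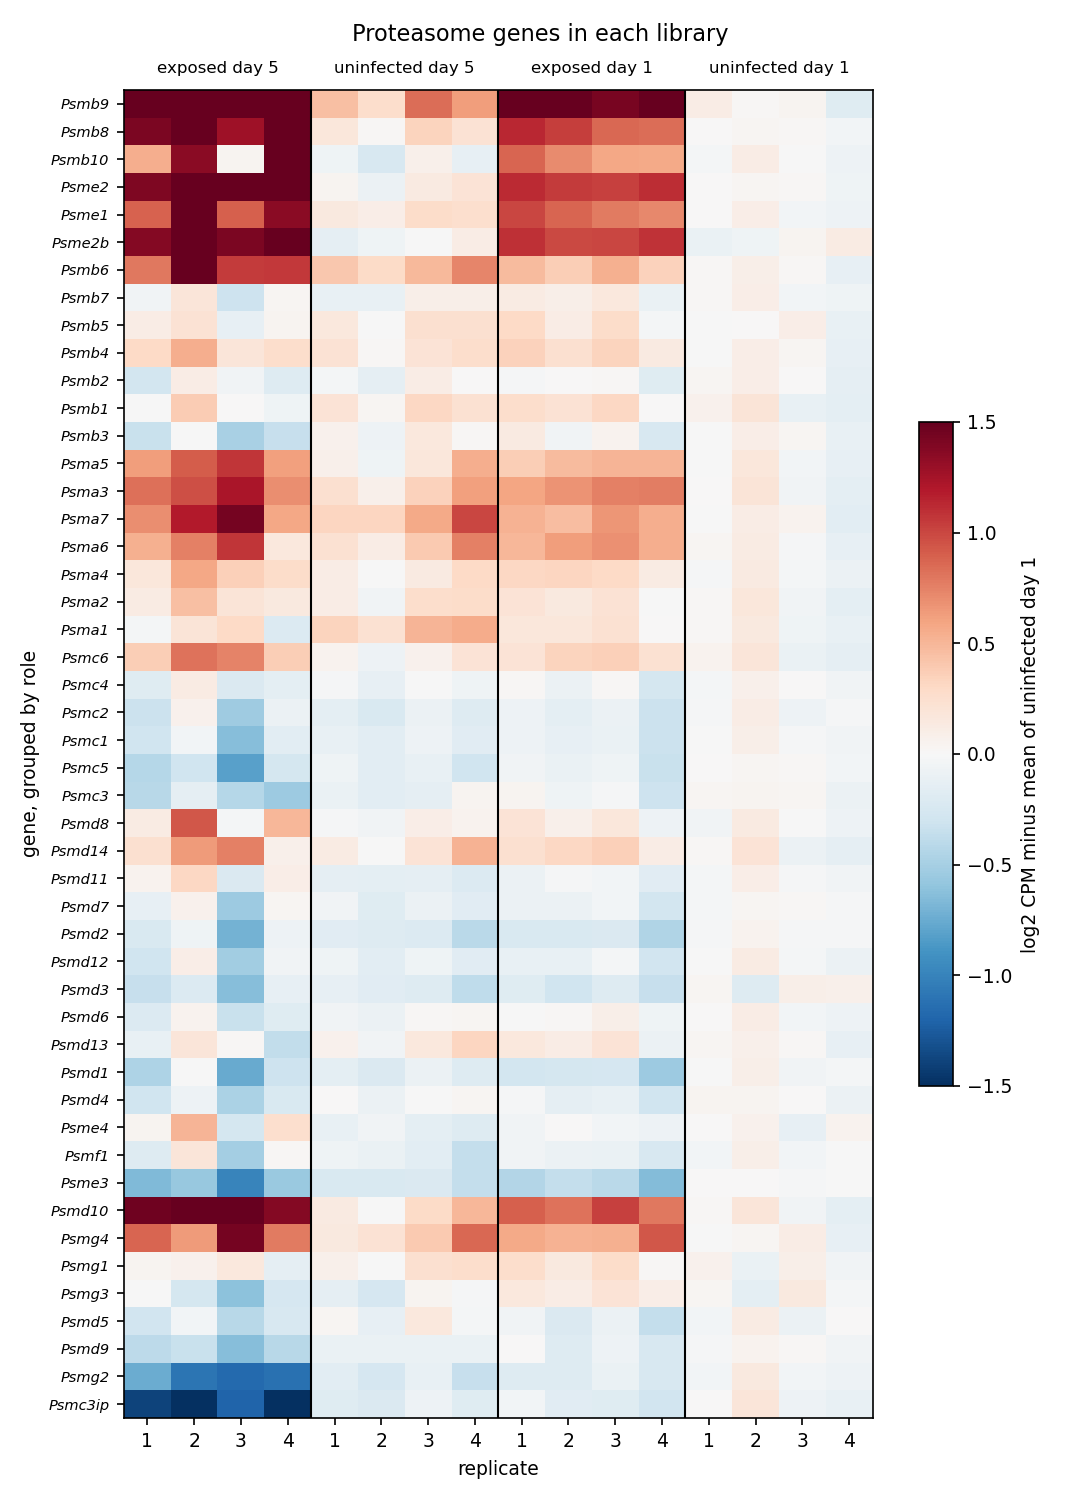
Log2 CPM of the 48 genes in each of the 16 libraries minus the mean of the uninfected day 1 libraries (red higher, blue lower, colours ending at 1.5 either way), genes in the order of the fold change plot. The immunoproteasome and PA28 rows are red in both exposed groups, and within exposed day 5 replicate 2 holds the highest value of 32 of 48 genes and replicate 3 the lowest of 26.

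The exposed day 5 libraries did not vary as 1 block. Replicate 2 had the highest level of 32 of the 48 genes and replicate 3 the lowest of 26, and Psmb8 and Psmb10 were high in replicates 2 and 4. Psma1, Psma3, Psma5, Psma6 and Psma7 were highest in replicate 3. With replicates 1 and 4 as the only exposed day 5 libraries, the day 5 log2 fold changes of Psmb8, Psmb9, Psmb10, Psme1 and Psme2 were 1.58, 1.77, 1.20, 0.94 and 1.53, all called. In other groups, too, single libraries stood at the edge of most genes: uninfected day 5 replicate 2 was lowest for 36, exposed day 1 replicate 4 was lowest for 39, and uninfected day 1 replicate 2 was highest for 41.

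The effect of exposure differed between the days for 7 of the 48 genes, 4 with a larger and 3 with a smaller log2 fold change at day 5, where 16.4% of all genes tested were higher and 19.5% lower. The 4 were Psmb8, Psme2, Psme2b and Psmd10, and the 3 were Psma1, Psmg2 and Psmc3ip. The counts depended on single libraries. They were 8 and 5 without exposed day 5 replicate 3, and the lower count was 7 without exposed day 5 replicate 2 and 6 without exposed day 1 replicate 4. The higher count was 2 without uninfected day 5 replicate 1, uninfected day 5 replicate 2 or uninfected day 1 replicate 2. With library totals as the scale the split was 4 larger and 10 smaller, and over all 17190 genes tested 2382 larger and 3851 smaller. Psmb9, Psmb10 and Psme1 had differences of 0.15, 0.39 and 0.20, none past the threshold.

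Between day 5 and day 1 in exposed cells, 10 genes were higher and 8 lower, where 25.6% of all genes tested were higher and 25.2% lower. These comparisons share their exposed libraries with those between exposed and uninfected cells. On the log2 scale Psmb8 was higher at day 5 by 0.79 ± 0.15 (SE; adjusted p = 0.000211), Psmb9 by 0.71 ± 0.14 (adjusted p = 0.000298) and Psme2 by 0.64 ± 0.10 (adjusted p = 4.47e-05). Psme1 was higher by 0.39 ± 0.13 (adjusted p = 0.0182), a call lost without exposed day 5 replicate 2 or 4 or exposed day 1 replicate 3 or 4 (adjusted p = 0.0519 to 0.0958). Psmb10, at 0.30, did not pass, except without exposed day 5 replicate 3 (0.52, adjusted p = 0.0145). With exposed day 5 replicates 1 and 4 alone, the rises of Psma5 (adjusted p = 0.32), Psma7 (adjusted p = 0.636) and Psmc6 (adjusted p = 0.435) between exposed days were lost, as were the falls of Psmg3 (adjusted p = 0.0869) and Psme3 (adjusted p = 0.128). With library totals as the scale the split was 7 higher and 17 lower, and the median over all genes moved to -0.0997, against 0.00484 with TMM. Over all 17190 genes tested that scale gave 3626 higher and 5422 lower. In uninfected cells 4 genes were higher at day 5 than at day 1 (Psma1, Psma7, Psmb6 and Psmb9) and 0 lower by edgeR's test, where 10.8% of all genes tested were higher and 8.91% lower. Of the 48, 4 were lower at an unadjusted p under 0.05, and 1 was lower by DESeq2. The higher count was 2 without uninfected day 5 replicate 4, the Psmb6 call being among those lost (adjusted p = 0.0593). With library totals as the scale the split was 4 higher and 3 lower, and over all 17190 genes tested 1558 higher and 1908 lower. A fit on the 8 uninfected libraries alone called 12 higher and 8 lower of the 48. Over all 15777 genes that this fit tested, it called 3386 higher and 3038 lower.

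Among 10 proteasome genes outside the symbol rule, 9 were tested. At day 5, 2 were higher and 1 lower (28.6% and 28.4% of all genes tested) with a median log2 fold change of 0.0423. At day 1, 1 was higher and 3 lower (13.4% and 10.5% of all genes tested) with a median of -0.146. Uchl5, a deubiquitinase of the cap, fell by 0.65 on the log2 scale (adjusted p = 3.12e-06). Ecpas and Txnl1, which bind the 26S proteasome, rose by 0.31 (adjusted p = 0.00341) and 0.32 (adjusted p = 0.0206). Akirin2, which brings proteasomes into the nucleus, had a log2 fold change of 0.16 and did not pass. At day 1 the maturation factor Pomp rose by 0.25 (adjusted p = 0.0481) and Uchl5, Ube3c and Usp14 fell by 0.40, 0.39 and 0.26.

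Of 10 regulators of proteasome genes, 6 were higher and 2 lower at day 5 (28.6% and 28.4% of all genes tested) with a median log2 fold change of 1.36, and 5 were higher and 1 lower at day 1 (13.4% and 10.5% of all genes tested) with a median of 0.284. Nlrc5, the transactivator of class I genes, averaged 53.8 ± 18.4 CPM in exposed against 0.463 ± 0.118 CPM in uninfected day 5 libraries (SD over 4 libraries each). Irf1, which drives immunoproteasome genes, averaged 74.1 ± 15.7 CPM in exposed against 22.8 ± 1.35 CPM in uninfected day 5 libraries, and Irf9 of the interferon pathway rose by 2.26 on the log2 scale. Irf8 fell by 1.76. Nfe2l1, the factor known to raise constitutive proteasome genes when the proteasome is impaired, rose by 1.27 (adjusted p = 3.98e-07), while Ddi2, the protease that activates it, fell by 0.47 (adjusted p = 2.73e-05).

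Of 12 genes of class I peptide processing, 9 were higher and 1 lower at day 5 (28.6% and 28.4% of all genes tested) with a median log2 fold change of 1.49, and 5 were higher and 1 lower at day 1 (13.4% and 10.5% of all genes tested) with a median of 0.306. Tap1, of the peptide transporter beside which Psmb8 and Psmb9 lie in the genome, averaged 159 ± 57.3 CPM in exposed against 20.1 ± 1.82 CPM in uninfected day 5 libraries, and 78.3 ± 7.5 CPM in exposed against 18.4 ± 0.571 CPM in uninfected day 1 libraries (SD over 4 libraries each). H2-K1, Tapbp and B2m rose by 2.76, 3.01 and 2.01 at day 5 on the log2 scale, and Lnpep fell by 0.22. Reads shared among class I genes limit the value of H2-K1. Of 10 ubiquitin and ubiquitin-like genes, 4 were higher and 3 lower at day 5 (28.6% and 28.4% of all genes tested) with a median log2 fold change of 0.182, and 4 were higher and 1 lower at day 1 (13.4% and 10.5% of all genes tested) with a median of 0.156. Isg15 averaged 299 ± 142 CPM in exposed against 3.82 ± 0.748 CPM in uninfected day 5 libraries, and its activating enzyme Uba7 averaged 162 ± 36.1 CPM in exposed against 15.8 ± 0.949 CPM in uninfected day 5 libraries. Ubd, the modifier FAT10 that targets proteins to the proteasome directly, averaged 11 ± 5.34 CPM in exposed against 0.0288 ± 0.0138 CPM in uninfected day 5 libraries. Nedd8, a ubiquitin-like modifier of cullins, fell by 0.41.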

How the data were processed

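RNA-seq counts per gene were deposited by the authors as whole numbers, 1 column of reverse-strand gene counts per library, per the file headers and names. Per the submitters' processing notes the reads were aligned with STAR to GRCm39, and tool versions and the annotation release are not given in the sources used here. The deposited counts were used as they stand, and all 16 libraries were compared in 4 groups of 4. Gene symbols and lengths were matched by Ensembl ID to GENCODE M21. A symbol was found for 52083 of 55359 IDs, and IDs without one held 0.449% of the counts.

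Genes were filtered by edgeR's filterByExpr (17190 tested), scaled by TMM and fitted in edgeR 4.0.16 (R 4.3.3) with a mean per group over all 16 libraries and the robust quasi-likelihood test. P-values were adjusted by Benjamini-Hochberg over all genes tested, and a gene was called at an adjusted p under 0.05. SEs were derived from the fold change and its F statistic. CPM are TMM-scaled and computed here. Log2 ratios within a library were compared by exact permutation tests, two-sided, with 6 in the family. Over deposited counts of this depth, the spread between libraries and not counting error set the precision. The replicates are cultures of 1 line, so p-values measure the spread between these samples. The model shared 1 dispersion per gene among the 4 groups, whose spreads were unequal.

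The symbol rule set the 48 genes. Members and gene lists were chosen with earlier results of these data known. Any of the 48 could be named, and values in every library are given for the 5 immunoproteasome and PA28 genes, Psmb5, Psmb6 and Psmb7, and the gene with the largest rise and fall at day 5 in each role, and also for Psmc3ip. In the other lists, up to 4 genes of smallest p at day 5 and any called in the opposite direction were named, except that some are not reported here. Nfe2l1, Pomp, Ube3c and Usp14 were named after their values were seen. Alternatives were other scaling factors, no or another filter, a replicate block, the libraries of each comparison alone, 1 library left out, subsets of replicates, and DESeq2 1.42.0. The exon-union length and the summed Psme2 copies were added after seeing the data. The replicate numbers were checked for pairing and did not pair the samples. Promoter windows are RefSeq's on GRCm38.p6. The fitting code was tested on data simulated with the same spread per gene in all 4 groups. That test cannot show how calls fare under the wider exposed day 5 spread.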

Additional observations from a re-analysis of the deposited data

Results flagged for a closer look

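Psmg2, the alpha ring chaperone that fell in exposed cells, had 1 library far from the others in 2 groups: exposed day 5 replicate 1 at 13.8 CPM, with the other 3 at 10.3 to 10.9 CPM, and uninfected day 1 replicate 2 at 25.6 CPM, with the others at 22 to 22.6 CPM. Psme3, encoding PA28 gamma, was at 158 CPM in uninfected day 5 replicate 4 and at 173 to 175 CPM in the others. Psmc3 was at 125 CPM in uninfected day 1 replicate 4 and at 135 to 136 CPM in the others. The log2 ratio of Psmb9 to Psmb6 was -3.64 in exposed day 1 replicate 3 and -3.24 to -3.20 in the others. These are 5 of 92 groups checked, and chance flags about 1 in 20.

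The effect of exposure differed between day 5 and day 1 by an interaction test for 7 of the 48 genes. On the log2 scale it was larger at day 5 for Psmb8 by 0.605, Psme2 by 0.561, its copy Psme2b by 0.664 and Psmd10 by 0.507. It was lower at day 5 for Psma1 by -0.482, Psmg2 by -0.622 and Psmc3ip, the recombination factor, by -1.41. The Psmb8 and Psmd10 differences depended on single libraries, as given with each gene.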

How the results depend on the processing

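No called result changed sign under any alternative. Fold changes that passed in neither fit changed sign in 46 cases at day 5, 12 at day 1, 57 for the change of effect, 46 between uninfected and 48 between exposed days, over all genes and settings. On leaving out 1 library, the counts called over the 48 genes were 12 to 17 higher and 8 to 14 lower at day 5, 10 to 15 higher and 1 to 2 lower at day 1, 2 to 8 larger and 3 to 7 smaller for the change of effect, 2 to 5 higher and 0 to 0 lower between uninfected days, and 7 to 12 higher and 6 to 10 lower between exposed days. The log2 pair ratios ran from 1.5 to 1.74 (day 5) and 0.763 to 0.875 (day 1) for Psmb8, 1.05 to 1.25 and 1.18 to 1.33 for Psmb9, and 0.784 to 1.17 and 0.57 to 0.681 for Psmb10, and with exposed day 5 replicates 1 and 4 only were 1.63, 1.31 and 1.13 at day 5, where fewer samples raise the smallest p. Library totals alone gave 17 lower at day 5, 4 lower at day 1, 10 smaller for the change, 3 lower between uninfected and 17 lower between exposed days, and moved the median of all genes at day 5 to -0.0637 and of the change to -0.115. Over the 17190 genes tested these counts were, in the same order, 5667, 2080, 3851, 1908 and 5422. Between uninfected days, RLE and upper-quartile factors, a filter at 1 CPM and DESeq2 each gave 1 lower. Over all genes they gave, in the same order, 1670 of 17190, 1308 of 17190, 1602 of 12619 and 1972 of 32044 lower. With the libraries of each comparison alone, 5 were lower at day 1, 12 higher and 8 lower between uninfected days, and 4 lower between exposed days. At day 5 that fit lost the calls of Psma4, Psma7, Psmd8, Psmd11, Psme4, Psmc5, Psmd4 and Psmd5 (adjusted p = 0.0527 to 0.122). Over all genes these fits called 3650 higher and 3371 lower of 15858 at day 1, against 2297 and 1800 of 17190 in the main fit. At day 5 they called 4187 higher and 3998 lower of 16321, against 4918 and 4879 of 17190 in the main fit. Between uninfected days they called 3386 higher and 3038 lower of 15777, and between exposed days 3390 of 16404 lower. With exposed day 5 replicates 1 and 4 only, 9 were smaller for the change, and 3859 of 17921 over all genes. With replicates 1 and 2 only the counts were 5 lower at day 5, 8 higher and 1 lower at day 1, 1 and 1 for the change, 0 higher between uninfected and 4 lower between exposed days. Over all 17444 genes that fit tested, these counts were, in the same order, 3809, 813 and 406, 1481 and 1675, 422, and 3178. With replicates 3 and 4 only the member counts were 8 higher and 6 lower at day 5, 6 higher and 0 lower at day 1, 0 and 1 for the change, 1 higher between uninfected days, and 6 higher and 3 lower between exposed days. Over all 17071 genes that fit tested, they were, in the same order, 3323 and 3330, 568 and 156, 811 and 1083, 386, and 2467 and 2480. DESeq2 called 4 lower at day 1, and 2444 of 32044 over all genes. The cause of these shifts was not tested, other than fewer samples in the subsets.

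Replicate numbers did not pair the samples: correlations of same-numbered deviations were -0.0992 to 0.0563 at day 5 and -0.0534 to 0.0597 at day 1. With a replicate block the counts were 16 higher and 10 lower at day 5, 13 higher and 2 lower at day 1, 3 and 3 for the change of effect, 4 and 0 between uninfected and 10 and 7 between exposed days. Over all 17190 genes tested they were, in the same order, 4810 and 4826, 2216 and 1740, 2725 and 3267, 1727 and 1434, and 4264 and 4268. Counting error, relative to the level, is largest for the genes with the lowest single-library values, Psmc3ip at 3.45 CPM and Psmg3 at 4.04 CPM.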
